A study of Rattus norvegicus with 12 samples.

Results

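MiR-221 and miR-222 are microRNAs (miRNAs) that are encoded side by side on the X chromosome, and they were 2 of the 375 miRNA assays read on a TaqMan qPCR card in rat medial entorhinal cortex (MEC). They were selected on the measured Ct values themselves, because both were higher in stellate cells than in non-stellate cells in all 5 pairs of samples after each sample was centred on its median, so their difference between these groups is given below as a description and without a test. Both were determined in all 12 samples. The sorted samples came from Long Evans rat pups that carried no genetic change. The tracer DiO was injected into the dentate gyrus on both sides at postnatal day 2 (P2), the MEC was dissociated at P4 or P5, and cells were separated by fluorescence activated cell sorting. The 5 stellate samples hold DiO-positive cells, that is, cells marked through a projection to the dentate gyrus, and the 5 non-stellate samples hold the DiO-negative cells, which can be any other cell of the MEC, including stellate cells that took up no dye. The 2 tissue samples are dissected, unsorted MEC of Long Evans rats at P23, with no dye mentioned for them. Age, dissociation and sorting, and the RNA kit (RNAqueous Micro for sorted cells, and for tissue mirVana in the labels but a Norgen kit in the study's methods) all differ between tissue and sorted cells and cannot be told apart.

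A miRNA guides silencing complexes to messenger RNAs that pair with its seed, the bases from position 2 to position 8. MiR-221 and miR-222 are best known for restraining Cdkn1b, an inhibitor of the cell cycle, and Kit, a receptor tyrosine kinase. They are abundant in endothelium and vascular smooth muscle, and in neurons they are known to be induced through growth factor and ERK signalling.

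Mature sequences were matched for both by name, and an assay name without an arm was read as the 3p arm. The sequences show what both miRNAs have in common, with the seed in capitals (RefSeq, build GRCr8).

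rno-miR-221-3p: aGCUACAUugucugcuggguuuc

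rno-miR-222-3p: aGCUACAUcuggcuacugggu

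The first 8 bases of the pair are identical, and without gaps 11 of 21 positions are identical (52.4%). Of 693 mature rat miRNA names in the RefSeq table, 2 have this seed, namely these. The mature miR-221-3p lies at chrX:6023246-6023268 and miR-222-3p at chrX:6022682-6022702, both on the plus strand. Both precursors are printed because they show the arm that the assays read, in capitals, within each hairpin.

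Mir221: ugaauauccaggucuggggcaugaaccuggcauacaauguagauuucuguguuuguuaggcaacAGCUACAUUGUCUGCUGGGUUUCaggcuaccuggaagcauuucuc

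Mir222: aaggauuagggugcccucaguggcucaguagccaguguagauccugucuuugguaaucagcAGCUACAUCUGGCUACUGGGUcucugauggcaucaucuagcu

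The Mir222 hairpin is at chrX:6022621-6022723 and the Mir221 hairpin at chrX:6023182-6023290, with 458 bases between them. There was no other miRNA hairpin of the table within 100000 bases of the pair, whereas chromosome X held 57 hairpins in all.

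The measurement is the threshold cycle (Ct), which falls by 1 when the amount of template doubles. A Ct of 40 stands for an undetermined well. The sorted samples had 203 to 260 determined miRNA assays and the tissue samples 292 and 302. The mean Ct of the 4 wells of U6, the small nuclear RNA that the study used as reference, was 16.5 to 20.2 in sorted samples and 15.6 to 16.0 in tissue. Non-stellate samples 3 and 5 stand apart, with miR-155 at Ct 11.3 and 11.7 against 32.1 to 35.5 in the other sorted samples, and their description label calls them labelled, against their titles. Stellate samples 1 and 4 had higher summed levels of the miRNAs listed as vascular and as blood than the other sorted samples (values below). Results are therefore also given without these samples.

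The raw Ct of miR-221 was 26.4, 25.4, 27.0, 25.7 and 25.1 in stellate samples 1 to 5. It was 27.4, 27.6, 29.8, 27.4 and 29.9 in non-stellate samples 1 to 5, and 21.4 and 21.3 in tissue. Thus every stellate sample crossed the threshold earlier than every non-stellate sample, and tissue earlier still. The raw Ct of miR-222 was 23.8, 24.5, 26.3, 24.9 and 24.4 in stellate samples and 26.4, 26.2, 28.2, 26.4 and 28.4 in non-stellate samples. Tissue was at 19.3 in both samples. For miR-222 the sorted groups overlapped, because stellate sample 3 crossed later than non-stellate sample 2. Raw Ct also carries the amount of RNA that entered the reaction, and in such bulk samples fewer cells of a type and less RNA per cell cannot be told apart.

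After subtraction of the mean U6 Ct of the sample, as in the deposited normalized values, miR-221 was at 9.63, 7.26, 8.02, 7.83 and 8.55 cycles in stellate samples 1 to 5 (8.26 ± 0.893, SD, n = 5). Its non-stellate values were 9.34, 9.87, 11.9, 8.94 and 9.64 (9.94 ± 1.16, SD, n = 5). A lower value means a higher level, so 4 of 5 stellate samples were above all non-stellate samples and stellate sample 1 lay among them. The U6-scaled Ct of miR-222 was 7.02, 6.37, 7.32, 7.04 and 7.87 in stellate samples (7.12 ± 0.541, SD, n = 5). The non-stellate values were 8.33, 8.51, 10.3, 7.86 and 8.13 (8.62 ± 0.945, SD, n = 5). The groups overlapped for miR-222 as well, through stellate sample 5 at 7.87 and non-stellate sample 4 at 7.86.

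The second scale, median centring, sets each sample at 0 by the median Ct of 176 miRNA assays, those with no undetermined well among the 10 sorted samples. It is given here as cycles before that median, so that a higher value means a higher level. MiR-221 came up 1.72, 2.63, 2.46, 2.55 and 2.91 cycles before the median in stellate samples 1 to 5 (2.45 ± 0.443, SD, n = 5). It came up 1.46, 1.37, 0.417, 1.52 and 1.07 cycles before the median in non-stellate samples (1.17 ± 0.453, SD, n = 5). MiR-221 was thus ahead of the median in every sorted sample, and the groups did not overlap. MiR-222 came up 4.33, 3.52, 3.17, 3.34 and 3.59 cycles before the median in stellate samples (3.59 ± 0.444, SD, n = 5). In non-stellate samples it came up 2.47, 2.74, 2.08, 2.60 and 2.58 cycles before it (2.49 ± 0.251, SD, n = 5). Here too the lowest stellate sample was above the highest non-stellate sample. Of the 222 miRNA assays with at most 3 undetermined sorted samples, 6 had stellate samples all above non-stellate samples on this scale (2.7% of those tested), and both members are among them, which follows in part from the way they were chosen.

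**Figure D1:**
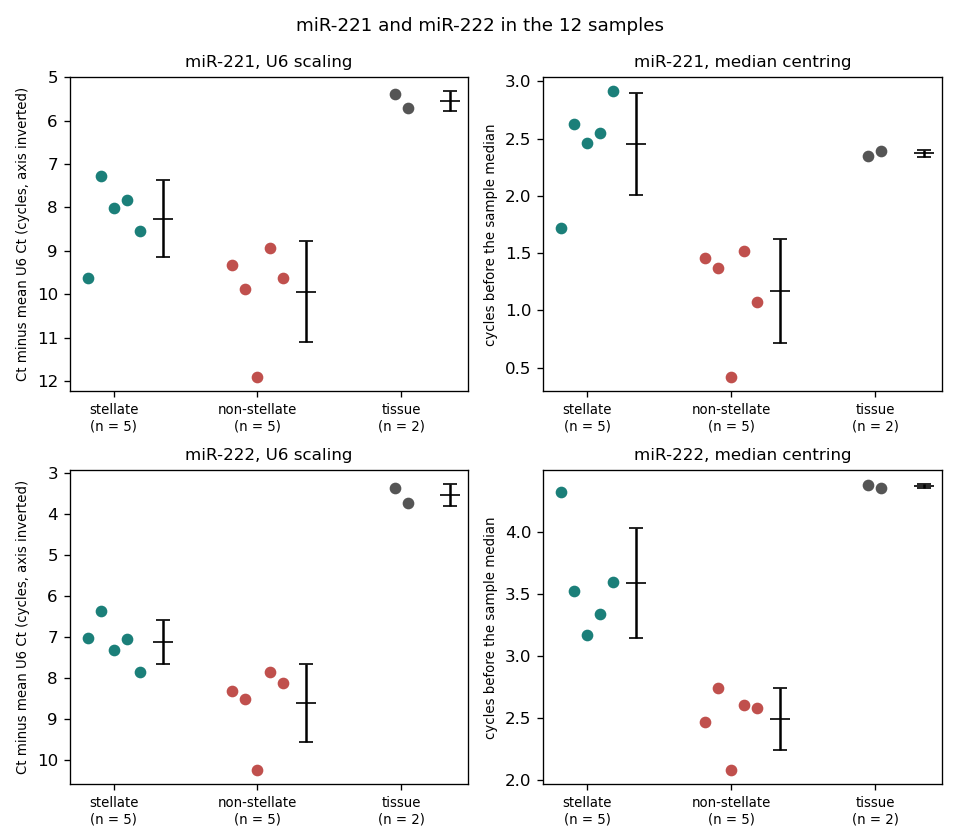
Level of miR-221 (top) and miR-222 (bottom) in each sample as Ct minus mean U6 Ct (left, cycles, axis inverted) and as cycles before the sample median (right). Points are samples, ordered by replicate number within a group, and the bars give the mean and SD. On the right the lowest stellate values, 1.72 and 3.17, are above the highest non-stellate values, 1.52 and 2.74.

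Within pairs of the same replicate number, the median-centred difference of miR-221, stellate minus non-stellate, was 0.26, 1.26, 2.04, 1.03 and 1.84 log2 units in pairs 1 to 5 (mean 1.29, SD 0.705, a 2.44-fold higher level). For miR-222 it was 1.86, 0.79, 1.09, 0.74 and 1.02 (mean 1.10, SD 0.452, 2.14-fold). The pair that was lowest for miR-221, pair 1, was the highest for miR-222. Of 222 tested assays, 26 were higher in all 5 pairs (11.7%) and 27 were lower in all 5 (12.2%). Among these 26, miR-222 ranked 3rd and miR-221 14th by the smallest of the 5 differences, and they ranked 14th and 12th by the mean difference. The assays just inside the choosing rule were miR-410, with a smallest difference of 0.0035, and miR-204, with 0.005. Just outside it were miR-324-3p, with -0.0075, and miR-125a-5p, with -0.0295.

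With U6 scaling, the pair differences of miR-221 were -0.29, 2.61, 3.89, 1.11 and 1.09 log2 units (mean 1.68, SD 1.60, 3.21-fold). Pair 1 thus went the other way for this miRNA and scale. Those of miR-222 were 1.30, 2.14, 2.94, 0.82 and 0.27 (mean 1.49, SD 1.06, 2.81-fold), all positive. With U6, 24 of the 222 tested assays were higher in all 5 pairs (10.8%) and 2 were lower (0.901%), and the median difference over these 222 was 0.46, against 0.07 after median centring. Part of the difference of either member on the U6 scale is therefore a shift that the measured miRNAs had in common. Without non-stellate samples 3 and 5 the U6-scaled mean differences were 1.13 for miR-221 and 1.11 for miR-222, and the median-centred ones 1.00 and 0.99. Without stellate samples 1 and 4, the median-centred differences were 1.50 and 0.94. In limma's fits across the 222 assays, 0 assays passed an adjusted p of 0.05 between stellate and non-stellate cells with either scale (16 had an unadjusted p under 0.05 with U6 and 28 with median centring), so that none of the 222 was called. The study itself, which filtered undetermined and unreliable results, reported several miRNAs as up-regulated in the labelled cells. MiR-143 and miR-150 were among them, and none was down-regulated. The reason for this difference in calls was not tested.

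Each further reference put the mean of both members higher in stellate cells. With the global mean the differences were 1.35 for miR-221 and 1.16 for miR-222. With snoRNA135, a small nucleolar RNA, they were 1.78 and 1.59, and with snoRNA202 they were 2.47 and 2.28. Scaled to U87, also a small nucleolar RNA, the differences were 1.67 and 1.48, and miR-221 was again lower in stellate cells in pair 1, by -0.15. Scaled to Y1, a small cytoplasmic RNA, they were 1.99 and 1.80, and miR-221 had its narrowest spread over pairs, from 1.81 to 2.17. Each of these scalings reuses the Ct values that chose the members and moves both assays of a sample alike. The shared sign is therefore no separate support, and the difference between both miRNAs is by construction the same on each. The mean difference of either miRNA varied more over scalings than that.

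**Figure D2:**
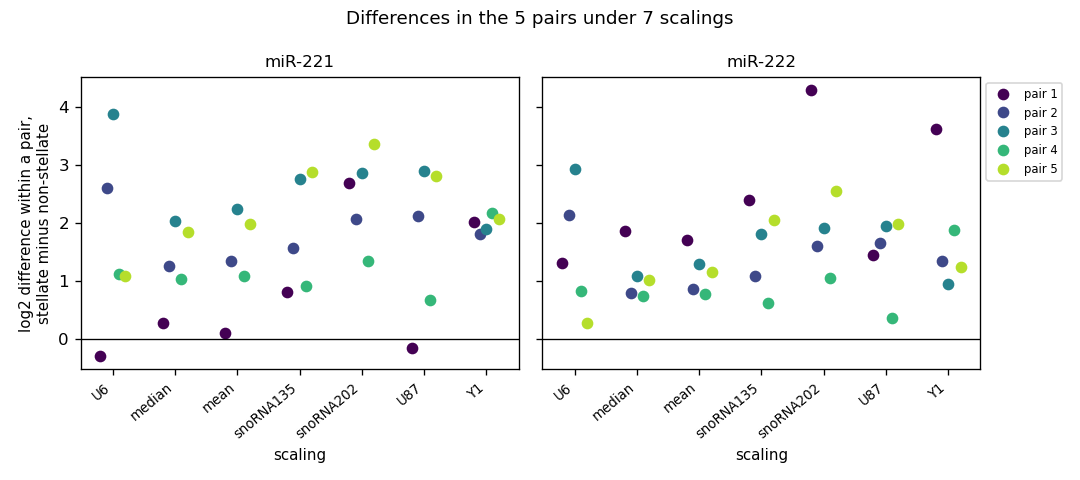
Log2 difference, stellate minus non-stellate, in each of the 5 pairs for miR-221 (left) and miR-222 (right) under 7 scalings on the horizontal axis (median is median centring, mean is the global mean). Points are pairs, and the line marks no difference. The points below the line are those of miR-221 in pair 1 with U6 (-0.29) and with U87 (-0.15).

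The spread among samples of a group is given as a description, since the values that chose both miRNAs enter it and a sign held in all pairs favours a small spread. The within-group SD of the median-centred Ct over sorted samples was 0.448 cycles for miR-221 and 0.361 for miR-222, against a median of 0.631 over these 176 assays. They ranked 43rd and 30th from the smallest. As each was read in 1 well, technical error is part of this SD. In the 2 tissue samples, the difference between samples had an SD of 0.389 cycles over 230 assays with a Ct under 30. A difference carries the spread of both samples, so this SD is not on the scale of the within-group SDs.

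Because miR-221 and miR-222 are encoded next to each other, the gap between their Ct values within a sample was also read. No reference enters it, but it can move with the amount of RNA where assays differ in efficiency or pre-amplification, and raw Ct differed widely between tissue and sorted cells. The Ct of miR-221 was above that of miR-222 by 2.60, 0.892, 0.709, 0.785 and 0.682 cycles in stellate samples 1 to 5. It was above by 1.01, 1.36, 1.66, 1.08 and 1.50 in non-stellate samples, and by 2.03 and 1.97 in tissue. Hence 4 stellate samples had a gap narrower than that of every non-stellate sample, and stellate sample 1 had the widest gap of the 12. For the same reason the gap does not give the ratio of both miRNAs. The part of the amount of RNA in its differences between samples was not tested. The mean gap was 1.13 ± 0.826 (SD, n = 5) in stellate cells, 1.32 ± 0.276 (SD, n = 5) in non-stellate cells and 2.00 ± 0.0431 (SD, n = 2) in tissue. Without stellate sample 1 the stellate mean was 0.767 ± 0.0941 (SD, n = 4). The difference between the sorted groups, stellate minus non-stellate, was -0.19 with this sample and -0.56 without it.

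The gap was wider in tissue than in sorted cells by 0.769 cycles (two-sided exact permutation test over the 12 samples, p = 0.152, with 0.0303 the smallest p that 66 splits allow). Without stellate sample 1, the only sorted sample with a gap above those of tissue, it was wider by 0.921 cycles. The exact permutation p then was 0.0364, the smallest that 55 splits allow. Leaving out this sample fixes that outcome, so it gives no support for a difference. Against non-stellate cells alone the gap in tissue was 0.674 wider (exact permutation p = 0.0952, the smallest allowed), and against stellate cells alone 0.863 wider (exact permutation p = 0.286). The test over all 12 samples did not pass, and its outcome depended on 1 stellate sample. These permutations also count the sorted samples of a pair as separate, although they were read as cells of the same biological replicate.

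**Figure D3:**
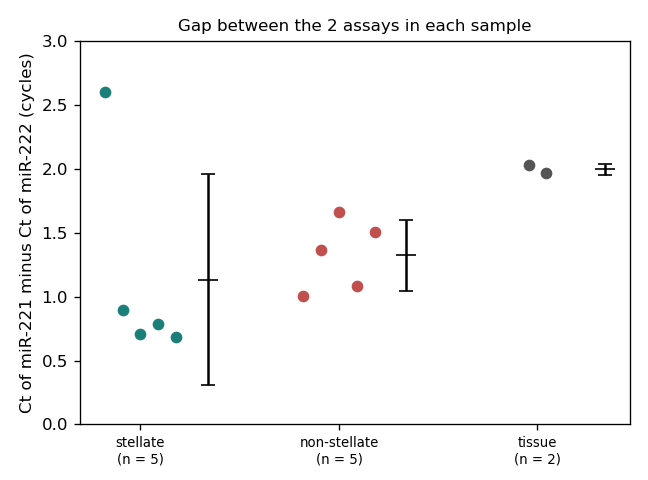
Ct of miR-221 minus Ct of miR-222 (cycles) in each sample of the 3 groups. Points are samples, and the bars give the mean and SD. Stellate sample 1 at 2.60 is above both tissue samples (2.03 and 1.97), while the other stellate samples lie at 0.682 to 0.892.

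The deviations of each sample from its group mean show the same sample. In stellate sample 1, miR-221 was 0.73 below and miR-222 was 0.74 above its group mean on the median-centred log2 scale. Over the 10 sorted samples, after group means were removed, Pearson's r between both miRNAs was -0.148, and it was 0.830 over the 9 samples without stellate sample 1. Samples share their centring over the same assays, and with so few samples these values are a description. With all 10 samples, miR-222 was 116th of 175 assays in likeness to miR-221. The assays most like miR-221 were miR-30d (r = 0.860), miR-7a (0.839), miR-335-5p (0.786), miR-130b (0.762) and miR-376b (0.726). Without stellate sample 1 these values were 0.743, 0.786, 0.681, 0.682 and 0.683, all below the 0.830 of miR-222, so this order rests on that sample. Most like miR-222 were miR-139-5p (r = 0.925), miR-384-5p (0.919), miR-376a (0.893), miR-539 (0.891) and miR-434-3p (0.873), which were at 0.769, 0.811, 0.652, 0.703 and 0.697 without it. The mean of both was most like miR-7b (0.903 with and 0.904 without stellate sample 1), miR-135b (0.827), miR-543 (0.816), miR-708 (0.809) and rno-miR-532-5p (0.798).

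**Figure D4:**
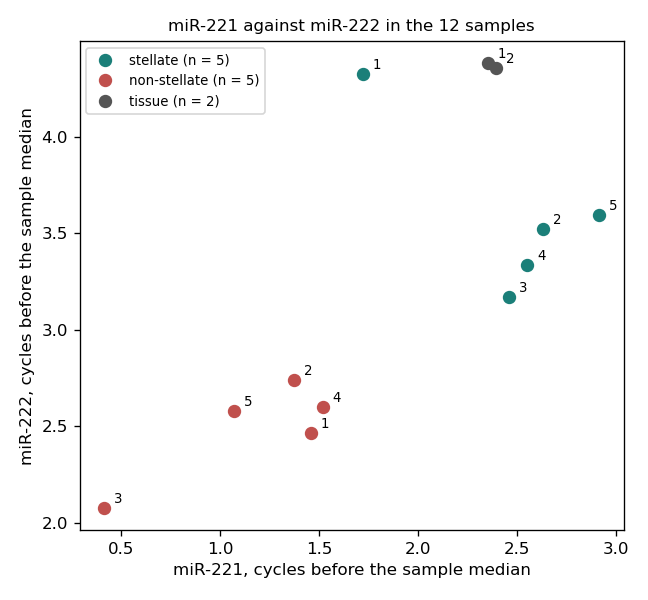
MiR-222 against miR-221 in the 12 samples, both in cycles before the sample median, with the replicate number beside each point. Stellate sample 1, at 1.72 and 4.33, lies away from the other stellate samples and at the miR-222 level of tissue (4.38 and 4.36).

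Tissue at P23 had far more of both miRNAs per U6 than the sorted cells at P4 or P5. The U6-scaled Ct was 5.39 and 5.71 in tissue for miR-221 and 3.36 and 3.74 for miR-222, lower than in every sorted sample. In limma's fit over all 12 samples, tissue minus the mean of both sorted groups was 3.55 ± 0.77 (SE) log2 units for miR-221 (adjusted p = 0.0015) and 4.32 ± 0.64 for miR-222 (adjusted p = 0.000121). These are changes among many, as 138 of 222 assays were called higher in tissue with U6 (62.2%), 3 were called lower (1.35%), and the median over the 222 assays was 3.02. After median centring, 53 assays were called higher (23.9%) and 56 lower (25.2%), and the median was 0.029.

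After median centring, miR-222 passed the test and miR-221 did not. MiR-222 came up 4.38 and 4.36 cycles before the median in tissue and was 1.33 ± 0.31 (SE) higher than in sorted cells (limma, adjusted p = 0.00445). MiR-221 came up 2.35 and 2.39 cycles before the median, and its difference of 0.56 ± 0.36 did not pass (limma, adjusted p = 0.215). Neither p-value is free of the choice of the members. A sign held in all pairs favours a small spread among sorted samples, and that spread enters the standard error. The test of whether both differences differ from each other is that of the gap above, which did not pass (exact permutation p = 0.152). With Y1 as reference neither passed, with 0.044 for miR-221 (limma, adjusted p = 0.952) and 0.81 for miR-222 (adjusted p = 0.406), while the median over all tested assays was -0.49, and 17 were called higher and 51 lower. The labels do not say whether the tissue samples came from separate animals, so for tissue these p-values may measure technical spread only. The fits of tissue against sorted cells, with either scale, had no replicate block. They count the sorted samples of a pair as separate.

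**Figure D5:**
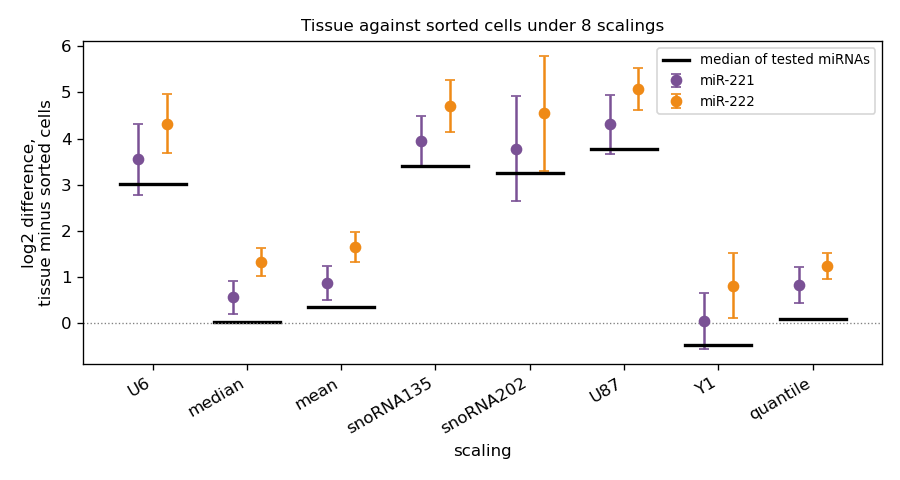
Log2 difference, tissue minus sorted cells, of miR-221 and miR-222 under 8 scalings, with the standard error of the limma fit as bars and the median of the 222 tested miRNAs as a black line. MiR-222 lies at 4.32 against a median of 3.02 with U6, and apart from quantile normalization each scaling moves all assays alike, so that the distance to the line is 1 observation.

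Set against each sorted group, the order of levels on the median-centred scale was stellate (2.45), tissue (2.37) and non-stellate (1.17) for miR-221, in cycles before the median. Both members were chosen for stellate values above non-stellate values, so the comparisons with 1 sorted group are given as a description. Tissue minus stellate was -0.083 ± 0.38 (SE). Tissue minus non-stellate was 1.20 ± 0.38, in a comparison in which limma called 25.2% of assays higher. For miR-222 the order was tissue (4.37), stellate (3.59) and non-stellate (2.49). Tissue minus stellate was 0.78 ± 0.33, where 18% of assays were called higher and 23% lower. Tissue minus non-stellate was 1.88 ± 0.33. With U6, tissue was above both sorted groups for both miRNAs. MiR-221 was higher by 2.71 than in stellate cells and by 4.39 than in non-stellate cells, and miR-222 by 3.57 and 5.06. On this scale 56.3% of assays were called higher (0.901% lower) against stellate cells, and 62.6% were called higher against non-stellate cells. These comparisons share the tissue samples. The choice of the members favours high stellate and low non-stellate values, which moves the differences from tissue in opposite ways.

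Levels of miRNAs of other cell types were read beside the pair, since miR-221 and miR-222 are also vascular miRNAs. MiR-143, listed here with smooth muscle, is not a marker of vessels alone. By in situ hybridization at P23 the study found a dense signal of it in stellate neurons, and only part of the vascular cells stained. The summed level of miR-126-3p and miR-126-5p, of endothelium, and miR-143 and miR-145, of smooth muscle, was computed in units in which 1 is the sample's median assay. It was 21.0, 3.50, 3.51, 21.3 and 2.38 in stellate samples 1 to 5, 2.25 to 6.68 in non-stellate samples, and 27.0 and 23.9 in tissue. Stellate samples 1 and 4 were therefore near tissue, and the other sorted samples were not. All 4 vascular miRNAs were tested, and their median-centred difference between stellate and non-stellate cells had a median of 1.02. MiR-126-3p (1.34) and miR-143 (2.29) were higher in all 5 pairs, as were 11.7% of all tested assays. MiR-126-5p (0.45) and miR-145 (0.71) were each higher in 2 of 5. Limma called 0 of the 4 (0 at an unadjusted p under 0.05 on this scale). In tissue all 4 were called higher with U6, beside 62.2% of all tested assays, and 2 with median centring, beside 23.9%.

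Of the 6 miRNAs of blood cells and microglia on the card, 4 were tested. MiR-142-5p, of leukocytes, and miR-451, of red blood cells, were undetermined in every sorted sample. The summed level of the list was 37.8, 5.51, 4.26, 35.6 and 5.11 in stellate samples 1 to 5, 1.71 to 5.32 in non-stellate samples, and 12.7 and 13.4 in tissue, so that stellate samples 1 and 4 stood out again. The median difference of the 4 tested was 0.25 after median centring, with 1 higher in all 5 pairs (miR-150, 1.98). MiR-150 is not read here as a marker of blood alone. The study reports it as up-regulated in the labelled cells, and by microarray in layer II of the MEC at P9. Neither oligodendrocyte miRNA was tested, as miR-219 was undetermined in 8 and miR-338-3p in 7 of the 10 sorted samples. The part of these cells in the values of miR-221 and miR-222 was not tested.

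The 5 neuronal miRNAs were all tested, and their median-centred difference had a median of 0.57. Their summed level, in the same units as above, went the other way, with 313, 266, 190, 191 and 428 in stellate samples 1 to 5 and 402, 373, 278, 518 and 505 in non-stellate samples, so that the groups overlapped. Of all tested assays, 11.7% were higher and 12.2% lower in all 5 pairs after median centring. The labelled cells had miR-128a (0.99) and miR-138 (1.30) higher in all 5 pairs. MiR-124, the most common neuronal marker among them, was higher in 4 of 5 (0.57), as was miR-129-3p (0.27). MiR-9, which is also known from progenitors, was lower in all 5 (-0.80) and was the only one of the 5 with a lower mean. A sum is weighted to the most abundant assays, and the part of miR-9 in it was not tested. None of the 5 was called by limma (2 at an unadjusted p under 0.05). In tissue, 5 of 5 were called higher with U6, where 62.2% of all tested assays were, and 2 with median centring, where 23.9% were.

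MiR-132 and miR-134 are, like miR-221 and miR-222, known to be induced by growth factors or activity in neurons. Both were higher in stellate cells in all 5 pairs after median centring, as were 11.7% of all tested assays. Their mean differences were 0.77 for miR-132 and 0.84 for miR-134, and neither was called by limma. In tissue they went apart: miR-132 was 2.36 higher than in sorted cells after median centring (limma, adjusted p = 9.76e-05), and miR-134 fell by 1.97 (limma, adjusted p = 0.0154). With U6, miR-132 was 5.35 higher in tissue (limma, adjusted p = 2.96e-05), and miR-134 was at 1.02 (adjusted p = 0.219).

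Other miRNAs of the X chromosome were compared because the pair lies there. Of 27 listed, 25 were on the card and 20 were tested. None of the 20 was higher in all 5 pairs after median centring, beside 11.7% of all tested assays. Lower in all 5 were 4, beside 12.2% of all tested assays: miR-106a (-0.86), miR-20b (-0.82), miR-322 (-2.14) and miR-532-3p (-0.39). With U6 the differences of these 4 were -0.46, -0.42, -1.74 and 0.0049, so that the last did not keep its sign. The median of the 20 was -0.24 after median centring and 0.15 with U6, against 0.07 and 0.46 over all tested assays, and 0 were called by limma (1 at an unadjusted p under 0.05 with either scale). In tissue, 2 of the 20 were called higher after median centring, miR-384-5p (3.16) and miR-384-3p (6.77), and 6 lower, beside 23.9% and 25.2% of all tested assays. With U6, 8 were called higher, beside 62.2% of all tested assays, and 0 lower. Further assays of listed genes under rat names were tested but are not in these counts. After median centring, rno-miR-450a was higher in tissue by 1.74 (limma, adjusted p = 0.0209). On the same scale rno-miR-351 was at -3.27 (limma, adjusted p = 0.000157), and rno-miR-532-5p at 0.0047 was not called. Between stellate and non-stellate cells rno-miR-450a was at -1.25 (limma, unadjusted p = 0.0228).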

How the data were processed

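Raw Ct values, on a log2 scale of PCR cycles, were deposited by the authors for 384 wells in 12 samples (375 miRNA assays, 8 reference wells, 1 plant control) from the TaqMan rodent card A v3.0. The authors also deposited log2 values normalized with HTqPCR as Ct minus the mean of 4 U6 wells. RNA was pre-amplified, which can distort ratios when template is low, and each miRNA was read in 1 well. Tables of the authors' fold changes and limma results hold their comparisons and were not used.

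Here, scaled Ct was tested with limma 3.58.1 in R 4.3.3, with Benjamini-Hochberg adjustment over 222 miRNA assays undetermined in at most 3 of 10 sorted samples. Undetermined wells stayed at 40, whereas the authors filtered undetermined and unreliable results. The fit was also run on simulated data in which each assay was drawn independently, so shifts shared by all assays of a sample were not covered. Stellate was compared with non-stellate cells over the 10 sorted samples, and tissue with sorted cells over all 12. The gap was tested by exact permutation in Python 3.11.15 with scipy 1.17.1. Groups came from titles and source names. Since qPCR gives no counts, precision was read from the spread between samples and from wells (SD of the difference of 2 U6 wells, 0.518).

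Pairs were read from replicate numbers, since the design text has labelled and unlabelled cells of the same biological replicates. Deviations from group means over assays correlated at 0.0743 to 0.331 for same-numbered samples and at -0.0481 on average for others.

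The members and the lists of miRNAs were chosen with earlier results of these data known. Named miRNAs were the members, the 5 assays most like each and their mean, those just inside or outside the choosing rule, and members of the lists. Alternatives were other scalings, assay filters, handling of undetermined wells, the replicate block, and left-out samples.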

Additional observations from a re-analysis of the deposited data

Results flagged for a closer look

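Of 15 sets of values tested for a sample far from its group, 3 had one, against 0.75 that chance gives at 1 in 20. In the gap between the Ct of miR-221 and of miR-222, stellate sample 1 was the highest of its group at 2.60 cycles, and its distance to the next sample made up 0.891 of the range of the group. The gap differences between paired samples had a far value of 1.60 cycles in pair 1, which holds the same sample. The U6-scaled Ct of miR-222 was farthest from its group in non-stellate sample 3, at 10.3 cycles. The 4 U6 wells of that sample had an SD of 0.817 cycles, and after median centring miR-222 was not far from its group there. The part of the U6 wells in this value was not tested.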

How the results depend on the processing

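Over 7 results, 220 alternatives were run, and 204 kept both direction and side of the threshold, or size where there was no test. In 1 the direction reversed. The count includes the differences of both members between stellate and non-stellate cells, whose sign the choice of the members favoured. Between stellate and non-stellate cells 0 assays were called in all 34 alternatives. The difference of miR-221 ranged from 1.13 to 2.17 and that of miR-222 from 1.08 to 1.80 when 1 sample or pair was left out, and miR-222 was at 2.28 with snoRNA202. With the replicate block, the differences stayed at 1.68 and 1.49 and 0 assays were called (26 at an unadjusted p under 0.05), and with the block and median centring they were 1.29 and 1.10 with 0 called (48 at an unadjusted p under 0.05); the block changed no call.

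For tissue against sorted cells, miR-221 no longer passed with median centring (0.56), the global mean (0.87), quantile normalization (0.82) or Y1 (0.044), and miR-222 no longer passed with Y1 (0.81). Y1 called 68 assays, against 141 with U6. Leaving out 1 sample gave 97 to 146 called assays, 3.30 to 3.71 for miR-221 and 4.11 to 4.51 for miR-222. Alternatives chosen after seeing the data combined median centring with left-out samples. There miR-221 was at 0.47 without stellate sample 1, 0.45 without stellate samples 1 and 4, 0.42 without non-stellate samples 3 and 5, 0.56 with tissue as 1 sample (65 assays called) and -0.083 against stellate samples alone (91 called), and miR-222 was at 0.78 in the last. Against stellate samples alone, miR-222 did not pass (limma, adjusted p = 0.0819). With tissue as 1 sample and median centring, miR-222 was at 1.33. That fit has no spread between tissue samples, so no call for miR-222 is drawn from it. The gap between tissue and sorted cells ranged from 0.708 to 0.921 with 1 sample left out. It passed only without stellate sample 1, at 0.92. That sample alone among the sorted ones had a gap above those of tissue, so this pass gives no support for a difference. The cause of these changes was not tested.

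Precision is limited by 1 well per miRNA, by 2 tissue samples and by low template in sorted cells.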
